A study of Mus musculus with 12 samples.

Results

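The Foxo factors and atrophy genes described here were *Foxo1*, *Foxo3*, *Foxo4*, *Fbxo32*, *Trim63*, *Klf15*, *Txnip* and *Irs2*. They were picked from a list of names, with no threshold on their values, as 8 of the 55401 genes in a table of read counts per gene, and 7 of the 8 had reads. The libraries came from satellite cells, the muscle stem cells that lie beside the fibres, sorted from mouse hind limbs by the fluorescence of a *Pax7*-ZsGreen reporter. The groups compared were 4 libraries each of freshly sorted (quiescent) *Cxcr4* WT and *Cxcr4* KO cells and 2 libraries each of WT and KO cells cultured overnight (activated). Sorted cells came from enzyme-digested muscle, and the culture used growth medium with serum and fibroblast growth factor. The paper reports MYOD1 protein in almost all freshly isolated cells and counts this among the earliest steps of activation.

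All 12 libraries came from animals that were CXCR4 FL/FL and carried *Pax7*-ZsGreen, and the KO animals also carried *Pax7*-creERT2, so that cre acted in *Pax7*-expressing cells. WT animals had the floxed allele without cre. By the treatment protocol, tamoxifen was injected at 80 mg/kg on 5 days. The study's methods add that mice were then kept on a tamoxifen diet until the end of each experiment. How long the animals behind these libraries received it is not stated there. By the study's methods its mice were adults aged 3 to 4 months, and the sex of the animals behind these libraries is not stated. The methods count samples in general as separate mice, but the labels do not tie these libraries to animals, so p-values measure the spread between libraries, which may be technical.

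Foxo proteins are forkhead transcription factors held out of the nucleus when insulin or insulin-like growth factors activate PI3K and Akt. In muscle fibres they are known for driving atrophy, in large part through the muscle E3 ubiquitin ligases encoded by *Fbxo32* (atrogin-1, also MAFbx) and *Trim63* (MuRF1). *Irs2* encodes an adaptor that couples insulin and growth factor receptors to PI3K and is itself a Foxo target, *Klf15* encodes a glucocorticoid-induced transcription factor, and *Txnip* encodes an arrestin-related thioredoxin-binding protein that restrains glucose uptake. In quiescent satellite cells Foxo factors are known for maintaining quiescence.

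Of the 8 genes, 6 had a promoter in the RefSeq table (GRCm38.p6), and 3 of these held a searched motif in the 250 bases before the transcript start. The 3 are shown because they place the Foxo and glucocorticoid motifs before genes whose levels are compared below. Both strands were searched for the Foxo element GTAAACA, the insulin response element CAAAACA and a glucocorticoid response element spelled AGAACA, any 3 bases, TGTTC, and the capitals mark the matches.
*Trim63*, chr4:134314870-134315119, plus strand: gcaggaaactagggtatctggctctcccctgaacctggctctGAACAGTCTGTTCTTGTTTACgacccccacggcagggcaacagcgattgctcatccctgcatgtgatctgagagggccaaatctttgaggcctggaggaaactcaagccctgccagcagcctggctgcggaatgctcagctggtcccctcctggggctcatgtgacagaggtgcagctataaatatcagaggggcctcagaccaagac
*Txnip*, chr3:96557707-96557956, plus strand: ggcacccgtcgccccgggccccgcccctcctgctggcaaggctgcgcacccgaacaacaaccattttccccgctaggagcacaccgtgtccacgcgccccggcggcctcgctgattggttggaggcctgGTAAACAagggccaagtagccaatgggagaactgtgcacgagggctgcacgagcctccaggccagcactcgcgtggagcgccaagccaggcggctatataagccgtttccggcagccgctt
*Irs2*, chr8:11008930-11009179, minus strand: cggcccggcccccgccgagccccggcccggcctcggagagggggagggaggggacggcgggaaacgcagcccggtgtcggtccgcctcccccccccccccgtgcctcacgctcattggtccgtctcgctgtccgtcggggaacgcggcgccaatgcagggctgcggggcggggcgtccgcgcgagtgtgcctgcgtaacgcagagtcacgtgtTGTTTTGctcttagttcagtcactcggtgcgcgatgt
In *Trim63* the glucocorticoid element lay from -208 to -195 relative to the start and was followed without a gap by the Foxo element from -194 to -188, both read on the strand opposite to the one printed. *Txnip* had a Foxo element from -121 to -115 and *Irs2* an insulin response element from -37 to -31, the latter also read on the opposite strand. These distances are from the RefSeq start. For *Irs2* that start lies upstream of the gene start in GENCODE M21 (chr8:11008458), from which the element lies farther. Among 32851 promoters of the same length, 3.17% held the Foxo element, 5.56% the insulin response element and 0.0304% the glucocorticoid element. The glucocorticoid spelling leaves out the last T of the palindrome AGAACA, any 3 bases, TGTTCT, and the *Trim63* site does not match that last base. The 0.0304% therefore holds for the shorter spelling only and does not measure how unusual the *Trim63* site is. The *Foxo1*, *Foxo3* and *Klf15* windows held none of these letters. A match describes the sequence and does not show a bound site.

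Levels are given as CPM, read counts scaled to the TMM-adjusted size of each library, and gene positions are those of GENCODE M21 (GRCm38). Whether the counting used strand, and how it treated reads that fall on overlapping genes, was not stated. Reads of *Foxo1*, *Irs2* and *Txnip* may therefore be mixed with those of annotated genes that overlap them, or left out where they overlap. The overlapping genes were assigned 184, 37 and 70 counts over all libraries, which does not measure such mixing or loss. Quiescent libraries held 12775593 to 23717013 counts and activated libraries 3172164 to 5427280 counts, and a ribosomal RNA gene took under 1% of the former and 11.5% to 40.3% of the latter. *Xist* stood at 451 to 817 CPM in activated and 1.204 to 7.17 CPM in quiescent libraries, while the Y-linked *Ddx3y* stood at 0 to 2.28 and 289 to 570 CPM, so state, sex and depth cannot be told apart in any comparison of activated with quiescent cells. Time since isolation and exposure to the culture medium also went with state, so a response to either cannot be told from it. *Cxcr4* itself was lower in quiescent KO than WT cells (log2 fold change -2.24, SE 0.31, adjusted p = 0.00477 by edgeR's quasi-likelihood test) and was not called in activated cells (-1.35, SE 0.46, adjusted p = 0.381). Activated WT replicates 1 and 2 held 33.3 and 14.4 CPM of *Cxcr4*, and activated KO replicates 1 and 2 held 5.39 and 13.7 CPM. The replicate 2 libraries of the genotypes were thus nearly equal. The 9 satellite cell markers summed to 3760 to 5744 CPM in quiescent and 1133 to 1680 CPM in activated libraries, and 13 mature fibre markers to 363 to 1178 CPM and 9426 to 21546 CPM. On activation 8 of the 9 satellite cell markers were called lower in WT and all 9 in KO cells. Other cell types the sort could hold were also marked, with summed markers of 225 to 997 (quiescent) and 78.1 to 495 CPM (activated) for endothelial cells, 299.6 to 2010 and 224 to 675 CPM for fibroadipogenic progenitors, 81.2 to 389 and 35.6 to 59.8 CPM for blood cells and 1272 to 2319 and 196 to 305 CPM for smooth muscle cells and pericytes. In such bulk libraries fewer cells of a type and less RNA per cell cannot be told apart.

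A gene was called when it was expressed (mean normalized count over 10), differed by more than 1 on the log2 scale in either direction and had an adjusted p under 0.05, with Benjamini-Hochberg adjustment over the 25771 genes tested. On activation, *Irs2* was called lower and *Trim63* higher in both genotypes, and *Foxo1* was called lower in KO cells. *Foxo3*, *Foxo4*, *Klf15* and *Txnip* were not called in any comparison, and *Fbxo32* could not be tested. Members called numbered 2 of 7 tested in WT cells, where 26.2% of all genes were called (9.65% higher, 16.5% lower), and 3 of 7 in KO cells, where 29.6% were called (11.1% higher, 18.5% lower). The median log2 fold change over all genes tested was -0.92 in WT and -0.96 in KO cells.

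**Figure D1:**
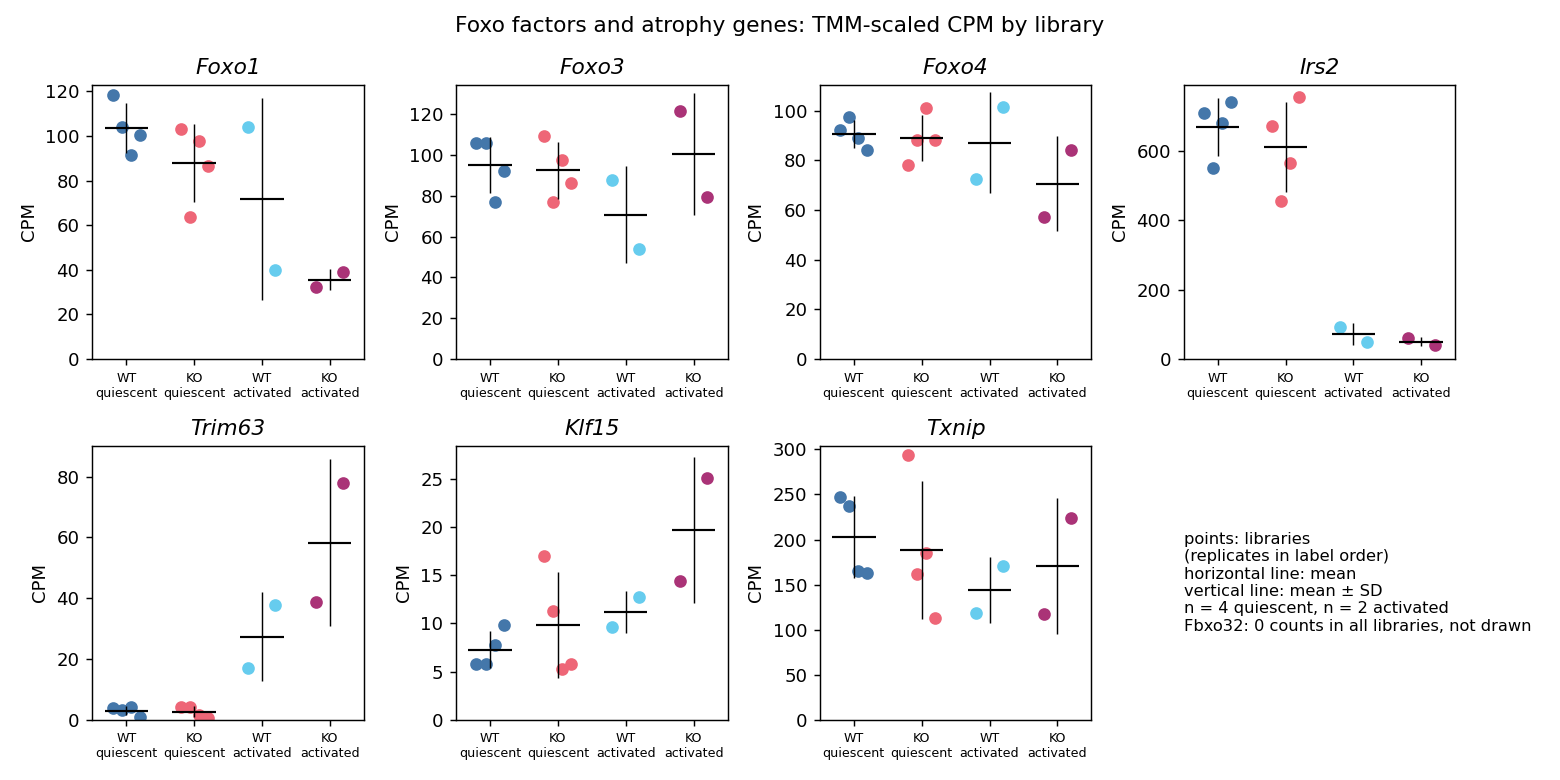
TMM-scaled CPM of the 7 genes with reads, by library and group, on linear axes from 0. Points are libraries, horizontal lines means and vertical lines mean ± SD (n = 4 quiescent, n = 2 activated). Of these genes only *Irs2* and *Trim63* separate quiescent from activated libraries in both genotypes. The share of all genes that separate in this way was not computed.

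*Foxo1* (chr3:52268336-52353221, plus strand) stood at 118, 103.8, 91.5 and 100.2 CPM in the 4 quiescent WT libraries and at 103.0, 63.5, 97.6 and 86.7 CPM in the 4 quiescent KO libraries. In activated WT cells it stood at 103.9 CPM in replicate 1 and 39.8 CPM in replicate 2. In activated KO cells it stood at 32.1 and 38.8 CPM. Both activated KO libraries therefore lay below every quiescent library, whereas the activated WT pair was split, with replicate 1 inside the quiescent range and replicate 2 close to the KO pair. Replicate 2 had the fewest counts (3172164) and the largest ribosomal RNA share (40.3%) of all libraries, and 91 *Foxo1* counts. Replicate 1 had the highest endothelial (495 CPM) and fibroadipogenic (675 CPM) marker sums of the activated libraries. The part of these differences in the split was not tested. Activated against quiescent KO cells gave a log2 fold change of -1.31 (SE 0.33, adjusted p = 0.00463 by edgeR, 2.47-fold lower), and the WT comparison gave -0.51 (SE 0.31, adjusted p = 0.213).

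Leaving out 1 of the 2 activated libraries of a genotype leaves a single library, which is then assumed to vary like the other groups. On that assumption the *Foxo1* call in KO cells was lost without activated KO replicate 1 (-1.18, adjusted p = 0.0704 by edgeR). Without activated WT replicate 1 the WT comparison was called too (-1.30, adjusted p = 0.0158), and without replicate 2 it was 0.06 (adjusted p = 0.899). Between the genotypes, activated KO against WT cells differed by -1.04 (95% interval -1.80 to -0.28, unadjusted p = 0.0101 and adjusted p = 0.400 by edgeR). That difference was -0.27 without activated WT replicate 1 and -1.63 without replicate 2, when it was called (adjusted p = 0.0244). The change on activation itself was not shown to differ between genotypes (difference -0.80, SE 0.44, adjusted p = 0.813 by edgeR).

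*Foxo3* (chr10:42181841-42276755, minus strand) stood at 77.0 to 105.8 CPM in quiescent WT and 77.0 to 109 CPM in quiescent KO libraries. The activated libraries stood at 87.6 and 53.9 CPM in WT and 121 and 79.4 CPM in KO cells, so that 1 WT library lay below and 1 KO library above the quiescent range. Log2 fold changes on activation were -0.42 (SE 0.27, adjusted p = 0.239 by edgeR) in WT and 0.12 (SE 0.27, adjusted p = 0.738) in KO cells. Activated KO against WT cells gave 0.50 (95% interval -0.16 to 1.15, adjusted p = 0.721 by edgeR).

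*Foxo4* (chrX:101254528-101260873, plus strand), which is X-linked, stood at 84.1 to 97.4 CPM in quiescent WT and 78.3 to 101 CPM in quiescent KO libraries. Activated libraries stood at 72.7 and 102 CPM in WT and at 57.0 and 84.2 CPM in KO cells, on both sides of the quiescent values in WT. The log2 fold change on activation was -0.06 (SE 0.24, adjusted p = 0.854 by edgeR) in WT, with a sign that changed with the scaling, and -0.33 (SE 0.25, adjusted p = 0.284) in KO cells. The spread of *Foxo4* over the 12 libraries was the smallest of the 7 genes (SD 0.23 in log2 CPM), followed by *Foxo3* (0.31), and those of *Irs2* (1.73) and *Trim63* (2.16) were the largest.

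To set the 3 factors side by side, CPM were divided by the length of annotated exon in kb. By this measure *Foxo4* was the most abundant Foxo transcript in all 12 libraries, at 45.3% to 71.3% of the Foxo sum. *Foxo1* held 17.1% to 25.3% in quiescent libraries, 27.0% and 11.3% in activated WT libraries and 10.3% and 11.4% in activated KO libraries. The Foxo sum was 42.9 to 54.0 CPM per kb in quiescent and 36.1 to 44.4 CPM per kb in activated libraries, so 1 activated WT library overlapped the quiescent range. Their relative *Foxo6* was called lower on activation in WT cells, from 4.43 to 11.7 CPM down to 1.75 and 3.59 CPM (-1.55, SE 0.56, adjusted p = 0.0423 by edgeR), and gave -1.23 (adjusted p = 0.0858) in KO cells. The lower activated WT value lay close to 1.31 CPM, the level of 3 counts in activated WT replicate 2, and rested on few reads.

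**Figure D2:**
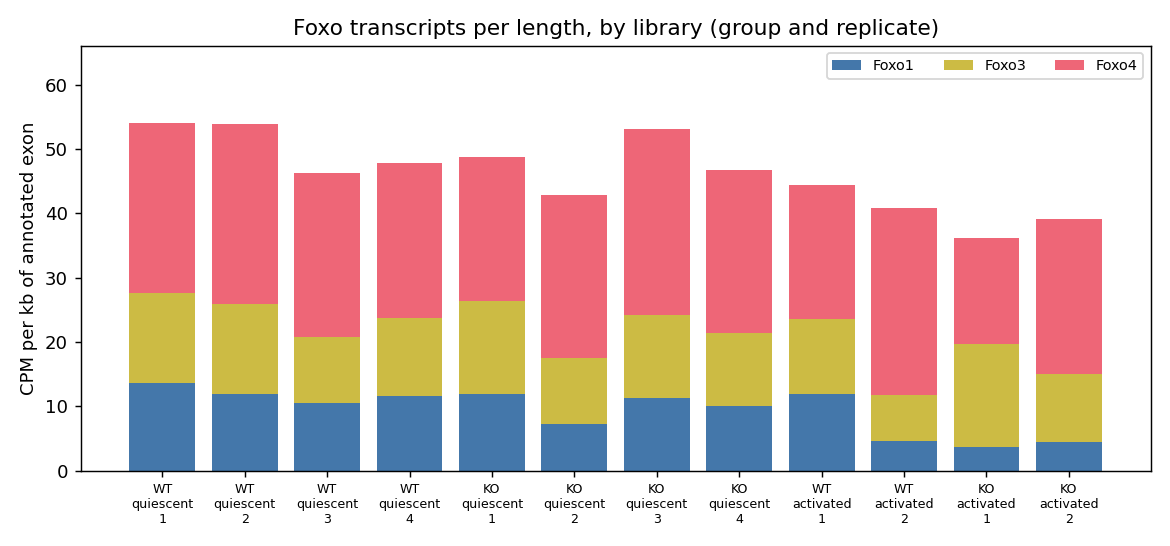
Stacked bars of *Foxo1*, *Foxo3* and *Foxo4* in CPM per kb of annotated exon, 1 bar per library, grouped by genotype and state. *Foxo4* takes 45.3% to 71.3% of each bar, and the *Foxo1* segment is thinnest in activated WT replicate 2 and both activated KO libraries.

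*Irs2* (chr8:10984681-11008458, minus strand) showed the clearest fall. It stood at 709, 550.1, 681 and 740.3 CPM in quiescent WT libraries and at 671, 455, 566 and 754 CPM in quiescent KO libraries, against 93.6 and 50.4 CPM in activated WT and 59.6 and 40.2 CPM in activated KO libraries. All activated libraries lay far below all quiescent ones, and the genotypes overlapped in both states. The log2 fold change was -3.21 in WT (SE 0.34, adjusted p = 1.01e-06 by edgeR, 9.23-fold lower) and -3.62 in KO cells (SE 0.35, adjusted p = 3.12e-07, 12.3-fold lower). Its paralog *Irs1*, named here after its values were seen, stood at 16.2 to 36.5 CPM in quiescent libraries, at 27.8 and 31.5 CPM in activated WT libraries and at 55.0 and 57.0 CPM in activated KO libraries. *Irs1* was called higher on activation in KO cells (1.14, SE 0.27, adjusted p = 0.00300 by edgeR) and gave -0.04 in WT cells (SE 0.29, adjusted p = 0.919). Activated KO against WT cells gave 0.92 for *Irs1* (SE 0.33, adjusted p = 0.418 by edgeR).

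The *Irs2* fall stayed called whichever single library was left out, with log2 fold changes from -3.66 to -2.78 in WT and from -3.93 to -3.34 in KO cells. The profiles nearest to *Irs2* over the 12 libraries, by root mean square distance of centred log2 CPM among 8992 genes whose log2 CPM averaged over 3, were those of *Tshz3* (0.18), a zinc finger homeobox gene, and *Kdm6b* (0.19), a histone H3K27 demethylase. *Tshz3* went from 124 to 200.2 CPM in quiescent to 8.44 to 23.0 CPM in activated libraries, and *Kdm6b* from 2475 to 3254 CPM to 214 to 467 CPM. These distances are descriptions, and the 12 points share state, depth and sex.

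*Fbxo32* (chr15:58175879-58214932, minus strand) was listed at 0 counts in all 12 libraries. The deposited FPKM, 1 pooled value per group, also listed it at 0. The 0 cannot be read as absence of the transcript, because the neighbouring genes were listed at 0 as well. Between *Tbc1d31* and *Fam91a1*, over 445 kb, 13 of 14 annotated genes had no count, including 7 of 8 coding genes, and the exception, *Atad2*, had 141 counts in all. Across all genes measured, 1049 of 21859 coding genes were at 0, among them *Jund* and *Ranbp1*, genes that most cells express. The cause was not tested.

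*Trim63* (chr4:134315120-134329629, plus strand) rose on activation in both genotypes. It stood at 3.97, 3.19, 4.17 and 0.867 CPM in quiescent WT libraries and at 4.17, 4.24, 1.495 and 0.614 CPM in quiescent KO libraries. The activated libraries stood at 17.0 and 37.7 CPM in WT and 38.8 and 77.8 CPM in KO cells, all above every quiescent library. The lowest quiescent library rested on 13 *Trim63* counts and the activated libraries on 86 to 341 counts. The log2 fold change was 3.13 in WT (SE 0.59, adjusted p = 0.000417 by edgeR, 8.78-fold higher) and 4.49 in KO cells (SE 0.59, adjusted p = 8.87e-06, 22.5-fold higher), and it stayed called whichever single library was left out (2.54 to 3.70 and 3.92 to 4.91).

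Both activated KO libraries lay above both activated WT libraries for *Trim63*, by a narrow margin between 37.7 and 38.8 CPM. The difference between them was 1.12 on the log2 scale (95% interval -0.31 to 2.56, adjusted p = 0.709 by edgeR), and the change on activation was not shown to differ between genotypes (difference 1.35, SE 0.85, adjusted p = 0.861).

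Mature fibre markers moved with *Trim63*. Of 13 such markers 12 were tested and all 12 were called higher on activation in WT and in KO cells (median log2 fold change 4.50 and 4.49), and none of the 13 was at 0 in every library of a group. Their summed level in the activated libraries was 9426 and 20503 CPM in WT and 12002 and 21546 CPM in KO cells. Per 1000 CPM of these markers, *Trim63* stood at 2.39 to 5.95 CPM in quiescent WT and 1.32 to 6.96 CPM in quiescent KO libraries, against 1.80 and 1.84 CPM in activated WT and 3.23 and 3.61 CPM in activated KO libraries. Set against fibre markers, *Trim63* in activated WT cells was thus below all quiescent WT libraries but inside the range of the quiescent KO libraries. In activated KO cells it was inside the quiescent range of both genotypes. The lowest quiescent ratio (1.32) rested on 13 *Trim63* counts. The part of fibre transcripts in the *Trim63* rise was not tested further.

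The profiles nearest to *Trim63* were those of *Myh1* (distance 0.50), a fast fibre myosin heavy chain that is also on the fibre marker list, and *Car3* (0.51), a carbonic anhydrase abundant in slow fibres. *Myh1* went from 14.8 to 69.1 CPM in quiescent to 194 to 639 CPM in activated libraries. Of 8 early differentiation markers, 1 was called higher (*Mef2c*) and 1 lower (*Ckb*) in each genotype, both named after their values were seen, and *Myog* gave -1.12 in WT (adjusted p = 0.338 by edgeR) and -0.06 in KO cells (adjusted p = 0.960).

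**Figure D3:**
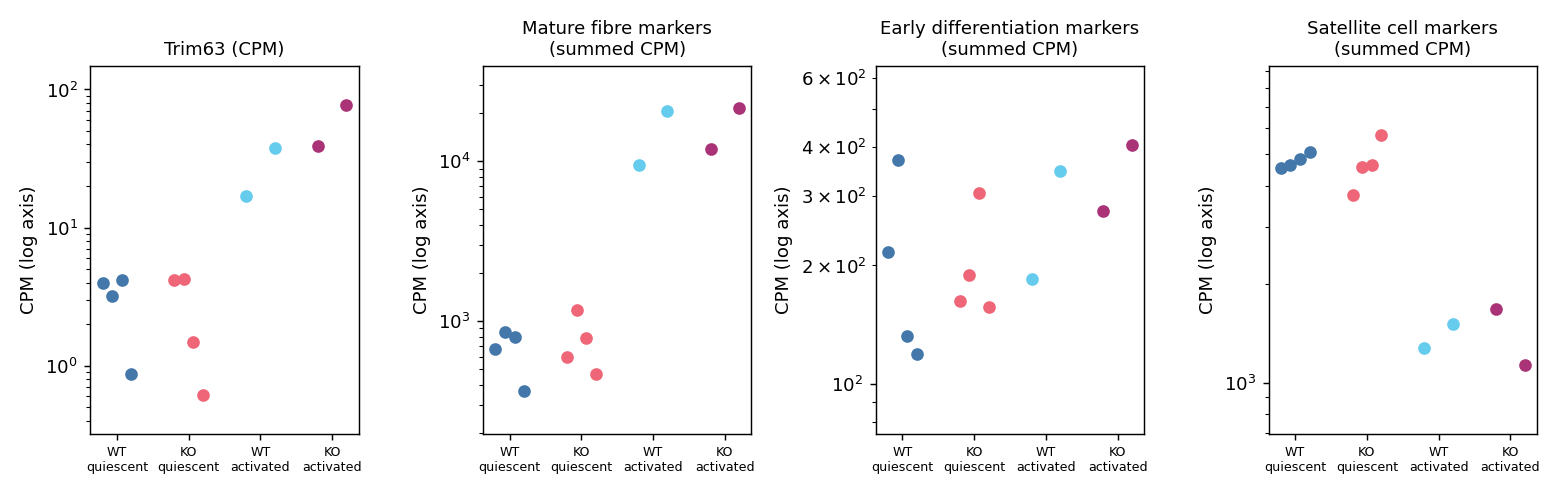
CPM of *Trim63* and summed CPM of mature fibre, early differentiation and satellite cell markers in each library, on log axes with a separate scale in each panel. Points are libraries, and *Trim63* and the fibre markers are higher in all 4 activated libraries than in all 8 quiescent ones, while the satellite cell markers are lower.

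*Klf15* (chr6:90462576-90475238, plus strand) stood at 5.79, 5.75, 7.72 and 9.83 CPM in quiescent WT libraries and at 17.1, 11.3, 5.28 and 5.76 CPM in quiescent KO libraries, where replicates 1 and 2 lay above all WT libraries. The activated libraries stood at 9.64 and 12.7 CPM in WT and 14.4 and 25.1 CPM in KO cells. The quiescent and activated ranges overlapped in both genotypes, by quiescent KO replicate 1 in KO cells. The log2 fold change was 0.60 in WT (SE 0.46, adjusted p = 0.306 by edgeR) and 1.01 in KO cells (SE 0.43, adjusted p = 0.0774). Without quiescent KO replicate 1 the KO change was 1.42 and was called (adjusted p = 0.0134 by edgeR). The 2 activated KO libraries lay above the 2 WT libraries, with a difference of 0.84 (95% interval -0.27 to 1.95, adjusted p = 0.723 by edgeR).

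*Txnip* (chr3:96557957-96561883, plus strand) stood at 247, 237, 165 and 163 CPM in quiescent WT libraries and at 294, 162, 185 and 112 CPM in quiescent KO libraries. Activated libraries stood at 118 and 170.3 CPM in WT and 118 and 224 CPM in KO cells. The groups overlapped in every comparison, with 1 high and 1 low library in each activated pair. Log2 fold changes on activation were -0.50 (95% interval -1.23 to 0.24, adjusted p = 0.273 by edgeR) in WT and -0.14 (95% interval -0.86 to 0.58, adjusted p = 0.756) in KO cells.

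Per kb of exon, the order of the genes in quiescent WT cells was *Irs2* (106 CPM per kb), *Txnip* (65.0), *Foxo4* (26.0), *Foxo3* (12.6), *Foxo1* (11.9), *Klf15* (2.61) and *Trim63* (1.07), where the ranges over libraries of *Foxo3* and *Foxo1* overlapped and those of the other neighbours did not. In quiescent KO cells the order was the same, and the ranges of *Irs2* and *Txnip* overlapped too. In activated KO cells *Txnip* led (54.7), followed by *Trim63* (20.5) and *Foxo4* (20.3), whose ranges overlapped, then *Foxo3* (13.3), whose range overlapped that of *Trim63*, *Irs2* (7.89) and *Klf15* (7.07), whose ranges overlapped, and *Foxo1* (4.09). In activated WT cells the order was *Txnip* (46.2), *Foxo4* (25.01), *Irs2* (11.4), *Trim63* (9.61), *Foxo3* (9.34), *Foxo1* (8.29) and *Klf15* (4.00), and each neighbouring pair from *Irs2* to *Foxo1* overlapped. *Trim63* was thus last among the detected genes in quiescent cells of both genotypes. In activated KO replicate 1 it lay at 13.6 CPM per kb, below *Foxo4* (16.4) and *Foxo3* (16.0), and in replicate 2 at 27.4 CPM per kb, above both. The deposited FPKM, without replicates, rose for *Trim63* from 1.05 to 9.98 in WT and from 0.916 to 19.98 in KO cells and fell for *Irs2* from 103 to 11.5 and from 93.5 to 7.76.

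**Figure D4:**
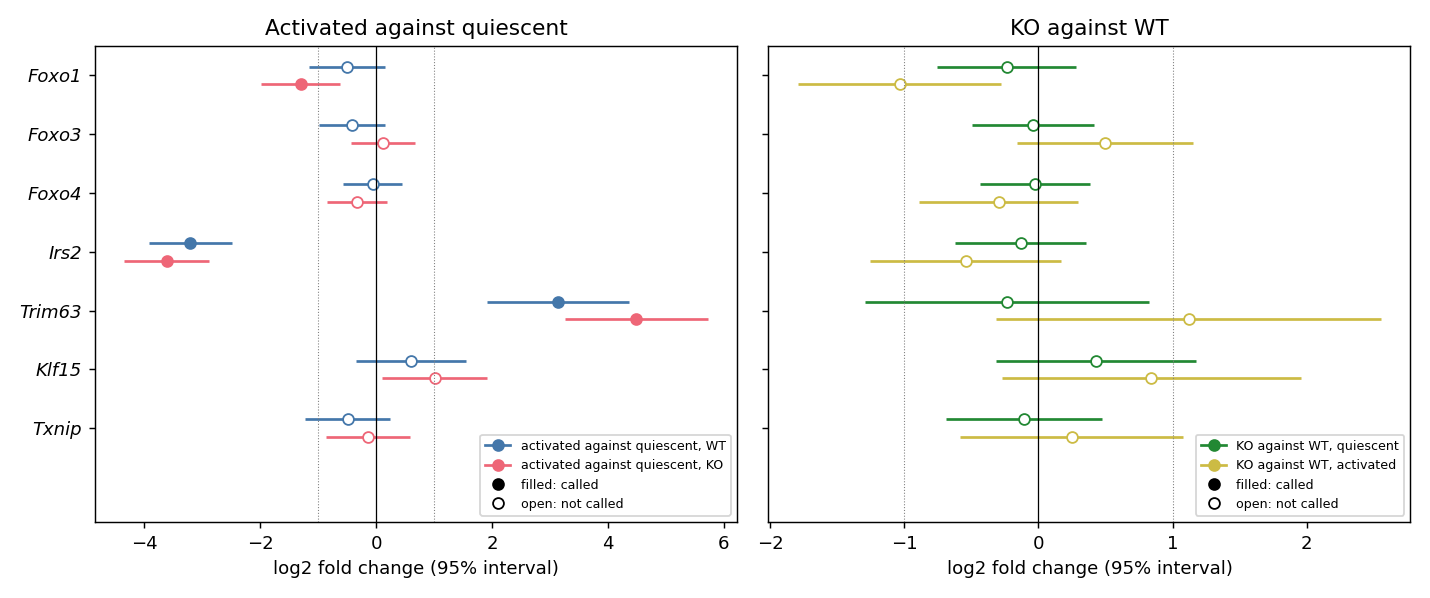
Log2 fold changes from edgeR, with 95% intervals derived from its F statistics, for the 7 genes tested. Activated against quiescent cells are at left and KO against WT cells at right, with filled points for called genes. The intervals of *Irs2* and *Trim63* lie beyond ±1 at left in both genotypes, and no point is filled at right.

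Between KO and WT cells none of the 7 tested genes was called. Of 100 simulated 4-fold changes, 30 were called between activated and 73 between quiescent KO and WT cells, so a gene not called may differ. In quiescent cells edgeR called 0, with 0 at an unadjusted p under 0.05, and DESeq2 called 0, where 0.0155% of all genes were called. Log2 fold changes ran from -0.24 for *Foxo1* (95% interval -0.75 to 0.28) to 0.43 for *Klf15* (95% interval -0.31 to 1.18), and the widest interval was that of *Trim63* (-1.29 to 0.82). In activated cells edgeR called 0, with 1 at an unadjusted p under 0.05 (*Foxo1*), and DESeq2 called 0, where 0.0504% of all genes were called by edgeR. The 95% intervals not given above were -0.89 to 0.29 for *Foxo4*, -1.25 to 0.17 for *Irs2* and -0.58 to 1.08 for *Txnip*. For the difference of the KO effect between states edgeR called 0 members, with 0 at an unadjusted p under 0.05, and DESeq2 0. Over all genes edgeR called 0 (0%) for this difference, with 1699 at an unadjusted p under 0.05, and DESeq2 called 47.

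The other genes of these pathways were taken from 7 lists of 88 genes in all, of which 87 were tested. On activation 10 were called higher and 27 lower in WT cells, where 9.65% of all genes were called higher and 16.5% lower, and 12 higher and 27 lower in KO cells, where 11.1% and 18.5% were. Their median log2 fold change was -0.42 in WT and -0.34 in KO cells, against -0.92 and -0.96 over all genes. The median over all genes moved with the filter on low counts. It was -0.46 in WT and -0.49 in KO cells with a mean count of at least 10, and -1.93 and -1.84 with all genes kept. The gap to the pathway genes therefore depends on which genes are kept. In the comparisons of KO with WT cells edgeR called 0 of the 87 in each state, with 0 (quiescent) and 8 (activated) at an unadjusted p under 0.05, and DESeq2 called 0.

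Of 19 genes from the insulin and IGF receptors to Akt and mTOR, 0 were called higher and 6 lower in each genotype. *Sgk1*, a kinase that phosphorylates Foxo proteins at Akt sites and is itself induced by glucocorticoids, went from 854 to 1291 CPM in quiescent to 46.9 to 180 CPM in activated libraries (-3.22, SE 0.45 in WT; -3.89, SE 0.47 in KO). *Igf1r*, the IGF1 receptor, was lower by a log2 fold change of -1.72 (SE 0.31) in WT and -1.81 (SE 0.31) in KO cells. The mildest called falls in WT cells were those of *Rictor* (-1.01, SE 0.35), a subunit of mTOR complex 2, and *Pik3r1* (-1.0, SE 0.29), a PI3K regulatory subunit, and *Pik3r1* was not called in KO cells (-0.72, SE 0.29). *Akt1*, named after its values were seen, stood at 174 to 243 CPM in quiescent and 301 to 446 CPM in activated libraries and missed the fold threshold (0.78 in WT, adjusted p = 0.0163 by edgeR).

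Of 16 Foxo cofactors and modifying enzymes 15 were tested, and 3 were called higher and 3 lower in WT and 4 and 4 in KO cells. *Prkaa2*, a catalytic subunit of AMPK, rose from 5.44 to 16.2 CPM to 37.4 to 94.6 CPM (2.95, SE 0.37 in WT; 2.83, SE 0.37 in KO). *Xpo1*, the export receptor through which Foxo proteins leave the nucleus, rose by 1.87 (SE 0.26) and 1.37 (SE 0.26). The deacetylase *Sirt1* (-1.32, SE 0.30 in WT; -1.41, SE 0.30 in KO) and the acetyltransferase *Crebbp* (-1.08, SE 0.28; -1.11, SE 0.28) were lower. The list thus held called genes in both directions.

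Of 19 Foxo target genes, 3 were called higher and 7 lower in WT, and 3 and 5 in KO cells. *Bnip3*, a mitophagy receptor, rose from 1.54 to 5.79 CPM in quiescent to 20.9 to 45.9 CPM in activated libraries (2.77, SE 0.40 in WT; 3.14, SE 0.39 in KO). *Eif4ebp1*, an inhibitor of cap-dependent translation, rose by 2.05 (SE 0.31) and 2.37 (SE 0.31). *Ccng2*, an atypical cyclin linked to growth arrest (-2.25, SE 0.34; -2.0, SE 0.34), and *Bcl2l11*, the proapoptotic Bim (-2.22, SE 0.33; -1.91, SE 0.32), fell in both genotypes.

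Of 4 relatives of the Foxo, MuRF and Irs genes, 1 was called higher (*Trim54*) and 1 lower (*Foxo6*) in WT cells, and 3 higher (*Trim54*, *Trim55* and *Irs1*) and 0 lower in KO cells. *Trim54* (MuRF3) rose with *Trim63*, from 1.46 to 3.89 CPM in quiescent to 14.4 to 41.3 CPM in activated libraries (3.66, SE 0.44 in WT; 3.83, SE 0.43 in KO). *Trim55* (MuRF2), named here after its values were seen, stood at 2.68 to 7.80 CPM in quiescent WT, 7.02 and 10.5 CPM in activated WT, 3.54 to 5.40 CPM in quiescent KO and 9.76 and 15.5 CPM in activated KO libraries. Its log2 fold change on activation was 0.82 in WT (SE 0.46, adjusted p = 0.179 by edgeR), which was not called, and 1.48 in KO cells (SE 0.44, adjusted p = 0.0140). Of 10 other ubiquitin ligases linked to atrophy, 3 were called higher and 1 lower in WT, and 2 and 1 in KO cells. *Fbxo40*, a muscle ligase that acts on Irs1, rose most (4.61, SE 0.41 in WT; 4.22, SE 0.40 in KO), from 2.50 to 8.27 CPM to 47.5 to 125 CPM. *Fbxo31* rose by 1.48 (SE 0.27) and 1.60 (SE 0.27), *Trim32* was called in WT (1.03, SE 0.37) and gave 0.70 (SE 0.37) in KO cells, and *Fbxo30* (MUSA1) fell by 2.21 (SE 0.30) and 2.58 (SE 0.31) on the log2 scale. Called ligases thus went in both directions. Mature fibre markers rose in the same libraries, and the part of fibre transcripts in the *Trim54* and *Fbxo40* rises was not tested.

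Of 10 genes of the glucocorticoid receptor and its targets, 0 were called higher and 5 lower in WT and 6 lower in KO cells, and the list median was -1.79 and -1.93. *Cebpd*, a C/EBP transcription factor, went from 814 to 1164 CPM in quiescent to 14.4 to 58.2 CPM in activated libraries (-4.70, SE 0.48 in WT; -4.85, SE 0.49 in KO). The metallothionein *Mt2* (-3.35, SE 0.39; -3.72, SE 0.39), the clock gene *Per1* (-2.87, SE 0.35; -3.50, SE 0.37) and *Errfi1*, a feedback inhibitor of EGF receptors (-2.61, SE 0.36; -2.77, SE 0.37), fell as well. *Fkbp5* and *Tsc22d3*, on the same list and named after their values were seen, did not share this fall in both genotypes. Mean *Fkbp5* went from 51.8 to 63.9 CPM in WT and from 65.4 to 91.7 CPM in KO cells. Mean *Tsc22d3* went from 57.6 to 44.8 CPM in WT and from 53.7 to 107 CPM in KO cells. *Nr3c1*, the receptor itself, named although it was not called, gave 0.30 (SE 0.23, adjusted p = 0.308 by edgeR) in WT and 0.18 (SE 0.23, adjusted p = 0.531) in KO cells. *Klf15*, a target of the same receptor, was not called in either genotype.

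Of 10 glucose-sensing genes and arrestin relatives of *Txnip*, 0 were called higher and 4 lower in WT and 5 lower in KO cells. *Mlxipl*, the glucose-responsive factor ChREBP that acts at the *Txnip* promoter, was lower (-2.11, SE 0.44 in WT; -1.97, SE 0.43 in KO), as was its relative *Mlxip* (-1.54, SE 0.28; -1.42, SE 0.28). The arrestin family genes *Arrdc1* (-1.77, SE 0.46; -1.29, SE 0.44) and *Arrdc3* (-1.15, SE 0.35; -1.81, SE 0.36) were lower too, while *Arrdc4*, the closest relative of *Txnip*, gave -0.12 (SE 0.36) and -0.26 (SE 0.36) and was not called.

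**Figure D5:**
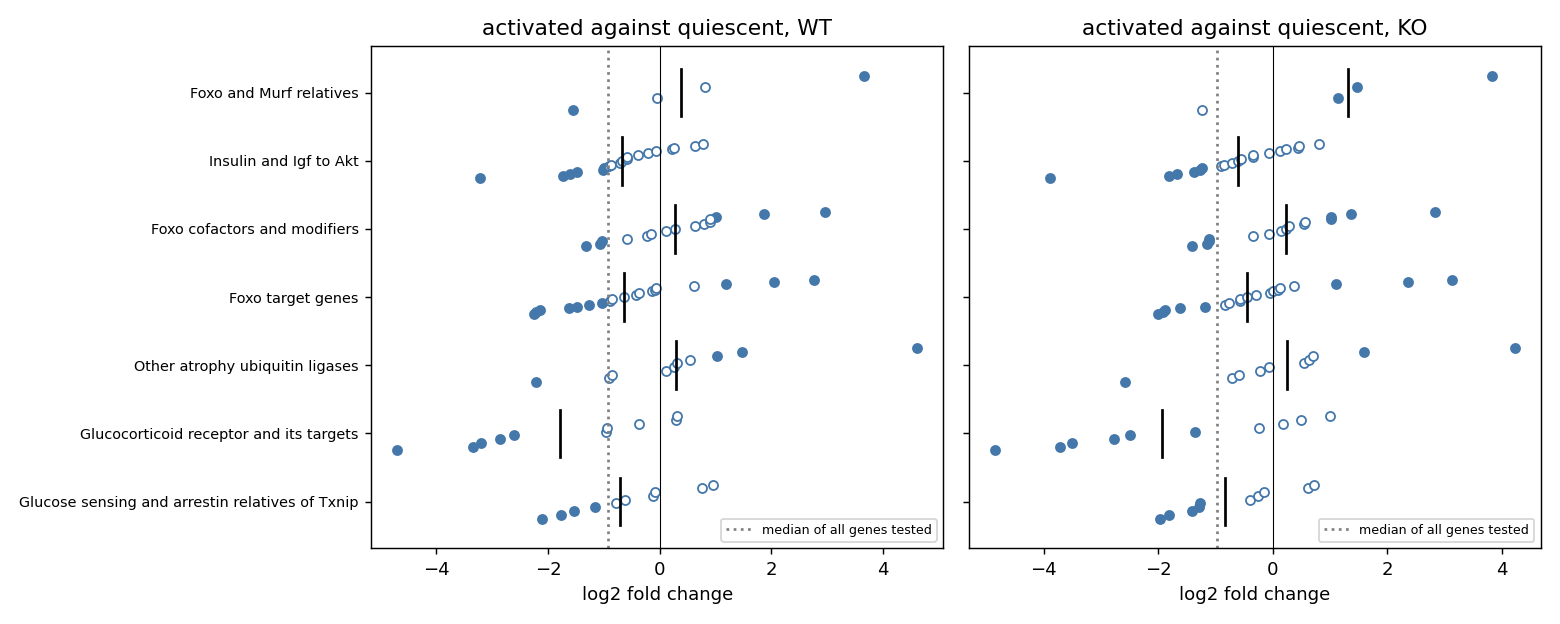
Log2 fold changes of the 87 tested pathway genes on activation, by list, in WT cells at left and KO cells at right. Filled points are called genes, black bars list medians and the dotted line the median of all genes tested (-0.92 and -0.96), and the glucocorticoid list has the lowest median in both panels (-1.79 and -1.93).

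The 8 pathway genes with an unadjusted p under 0.05 between activated KO and WT cells are named after their values were seen, and none was called. *Irs1*, *Tsc2*, *Sesn1*, *Sesn3*, *Ddit4* and *Tsc22d3* had positive and *Phlpp1* and *Per1* negative log2 fold changes. *Tsc22d3*, the glucocorticoid-induced leucine zipper, stood at 37.4 and 52.1 CPM in WT and at 79.4 and 135 CPM in KO cells (1.27, SE 0.38, adjusted p = 0.275 by edgeR). *Sesn3*, a sestrin and Foxo target, stood at 15.3 and 23.0 CPM in WT and at 35.8 and 36.2 CPM in KO cells (0.89, SE 0.30, adjusted p = 0.367 by edgeR). Over all genes 2158 of 25771 had an unadjusted p under 0.05 in this comparison.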

How the data were processed

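RNA-seq counts from 12 libraries of sorted mouse satellite cells were analysed. The authors trimmed reads with Trim Galore 0.6.0, mapped them to GRCm38.p6 with STAR 2.7.2a and assigned them to genes of a GENCODE annotation using Rsubread. The deposited table holds the raw read counts per gene. The deposited FPKM table holds 1 value per group, normalized by the authors and without replicates. All columns were mapped to samples by the labels.

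Genes with few counts were removed with filterByExpr, libraries were scaled by TMM, and 1 model with a mean per group was fitted in edgeR 4.0.16 (R 4.3.3) to all 12 libraries. Each contrast used edgeR's quasi-likelihood test, and p-values were adjusted over 25771 genes after Benjamini and Hochberg. Activated libraries (3172164 to 5427280 counts) were shallower than quiescent ones (12775593 to 23717013), which limits the precision for low genes. Log2 CPM used a prior count of 2. Exon lengths and positions came from GENCODE M21, which holds 55141 of the 55401 gene IDs, while the authors used another GENCODE release. Promoters came from RefSeq.

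Alternatives were DESeq2 1.42.0, its size factors within edgeR, other filters, the adjusted p alone, edgeR on the compared groups, leaving out the ribosomal RNA gene, a replicate block and leaving out each library. The scripts were tested on simulated data with 100 genes changed 2-fold, which is at the fold threshold, and 100 changed 4-fold. Calls among these numbered 1 and 30 for activated KO against WT cells and 21 and 73 for quiescent cells. Named pathway genes were the called genes with the 2 highest and 2 lowest fold changes of each list in WT cells, and, for each member, the 2 genes of nearest profile. *Akt1*, *Nr3c1*, *Fkbp5*, *Arrdc4*, *Irs1*, *Trim55*, *Mef2c*, *Ckb*, *Myog*, *Jund*, *Ranbp1* and the genes picked by unadjusted p were named outside this rule after their values were seen. The members and lists were chosen with earlier results of these data known.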

Additional observations from a re-analysis of the deposited data

How the results depend on the processing

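Other settings left the members called at 2 in WT and at 3 to 4 in KO cells on activation (the added gene was *Klf15* with all genes kept, adjusted p = 0.0492 by edgeR), and at 0 between KO and WT cells in each state. Leaving out 1 library gave 2 to 3 in WT, 2 to 4 in KO and 0 to 1 for activated KO against WT cells, where the 1 was *Foxo1* without activated WT replicate 2. Where this left 1 activated library, that library was assumed to vary like the other groups. Pathway genes called ranged from 33 to 49 (37 as reported) in WT and from 32 to 43 (39) in KO cells under other settings, and from 28 to 34 and from 30 to 38 without 1 library. Over all genes, calls under other settings ranged from 3 to 47 (4) for quiescent and from 2 to 332 (13) for activated KO against WT cells, and from 0 to 170 (0) for the difference between states. The highest of these counts came without a filter on low counts, and DESeq2 gave 5, 144 and 47. For activated KO against WT cells, calls over all genes were 0 without activated WT replicate 1, 211 without activated WT replicate 2, 59 without activated KO replicate 1 and 2 without activated KO replicate 2, and for the difference between states 0, 82, 29 and 0. Without 1 quiescent library they were 3 to 7 for quiescent KO against WT cells (7 without KO replicate 3) and 0 to 3 for the difference (3 without KO replicate 1). On activation they went from 6750 to 4481 in WT without activated WT replicate 2 and from 7633 to 5020 in KO cells without activated KO replicate 1. The cause was not tested.

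The WT change of *Foxo4* on activation, -0.06, was 0.018 with size factors, 0.022 with a mean count of at least 10, 0.013 with DESeq2 and 0.0012 with the compared groups alone. Leaving out 1 library changed the sign of log2 fold changes that were not called, over these ranges. On activation they were -1.30 to 0.065 for *Foxo1* and -0.26 to 0.24 for *Foxo4* in WT, and -0.66 to 0.25 for *Txnip* and -0.22 to 0.41 for *Foxo3* in KO cells. Between quiescent KO and WT cells they were -0.093 to 0.028 for *Foxo4*, -0.13 to 0.044 for *Foxo3*, -0.41 to 0.075 for *Txnip* and -0.57 to 0.10 for *Trim63*, and between activated cells -0.35 to 0.62 for *Txnip*. For the difference between states they were -0.84 to 0.033 for *Irs2*, -0.093 to 0.81 for *Klf15* and -0.23 to 0.72 for *Txnip*.

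The replicate numbers were not taken to pair libraries, since not every pair deviated together, and deviations of libraries with the same number correlated at 0.24, 0.16, -0.27 and 0.59 in quiescent and -0.07 in activated cells. With the replicate block the members called were 2 in WT and 3 in KO cells on activation and 0 between KO and WT cells, and the pathway genes called on activation were 36 and 32.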

Other observations

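The remaining genes of nearest profile over the 12 libraries were *Nuak2* (distance 0.14) and *Arhgap29* (0.17) for *Foxo1*, *Pank2* (0.17) and *Tpr* (0.18) for *Foxo3*, *Zfp710* (0.15) and *Mapk8* (0.17) for *Foxo4*, *Ankrd1* (0.28) and *Ift20* (0.35) for *Klf15*, and *Epb41l4b* (0.16) and *Cnst* (0.20) for *Txnip*. *Nuak2*, an AMPK-related kinase, showed the split of *Foxo1* in activated WT cells, with 16.3 and 4.82 CPM in the pair, against 8.81 to 15.1 CPM in quiescent libraries and 4.37 to 6.16 CPM in activated KO libraries. *Ankrd1*, a stress-responsive ankyrin repeat gene of striated muscle, stood at 86.9 to 252 CPM in quiescent, 153 to 168 CPM in activated WT and 250.4 to 473 CPM in activated KO libraries. These likenesses are descriptions over libraries that share state, sex and depth.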
